A study of Mus musculus with 7 samples.

Results

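The NRF2 pathway was followed through 10 genes in mouse liver: the transcription factor NRF2 itself (Nfe2l2), its repressor Keap1, and 8 genes that NRF2 is known to switch on (Gclc, Gclm, Gsr, Txnrd1, Srxn1, Nqo1, Hmox1 and Abcc4). They were chosen by gene symbol with earlier results of these data known, and all 10 were present among the 23366 genes of the tables. The livers came from mice of the inbred strain C57BL/6, aged 3 months (4 libraries) or 21 months (3 libraries), with no treatment or engineered allele named for either age. RNA enriched for mRNA was sequenced from strand-specific libraries. The labels do not say that the libraries of an age came from separate animals, nor do they give sex or feeding state, so the p-values measure the spread between these libraries, which may be technical.

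In unstressed cells KEAP1 holds NRF2 in the cytoplasm and hands it to a ubiquitin ligase built on cullin 3, so that little NRF2 protein accumulates. Electrophiles and oxidants modify cysteines of KEAP1, NRF2 then escapes breakdown, pairs with a small MAF protein in the nucleus and binds antioxidant response elements near its target genes. Since this switch acts mainly on protein stability, the level of Nfe2l2 mRNA is not a measure of NRF2 activity. In liver the targets supply glutathione, regenerate thioredoxin and peroxiredoxins, reduce quinones, break down haem and export conjugates.

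The antioxidant response element has the core TGACNNNGC, where N is any base, and a variant core TGAGNNNGC that can coincide with the AP-1 site TGANTCA. These letters were looked for on both strands of RefSeq promoter windows (build GRCm38.p6, 250 bases before to 50 bases after a gene start). Of the 10 genes, 7 had a window, some more than 1, which gave 10 windows. The core was found in 6 of the 10 windows, belonging to Nfe2l2, Srxn1, Txnrd1, Gclm and Abcc4. Of all 32851 windows of this length, 12.4% held it, and 14.4% of the 10799 windows of the genes tested for age below. The matches are shown 5′ to 3′ on the gene's own strand because they are the letters by which NRF2 targets are usually recognised, with the core in capitals (its reverse complement, ending in GTCA, where it lies on the other strand).
Nfe2l2 (chr2:75704885-75704913, minus strand): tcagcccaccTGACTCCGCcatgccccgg
Srxn1 (chr2:152105542-152105570, plus strand): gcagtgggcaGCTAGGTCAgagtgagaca
Txnrd1 (chr10:82859104-82859132, plus strand): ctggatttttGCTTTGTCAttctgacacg
Gclm (chr3:122245413-122245441, plus strand): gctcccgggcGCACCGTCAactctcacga
Abcc4, upstream start (chr14:118706226-118706254, minus strand): gccccgagagGCGGGGTCAgggcgggccg
Abcc4, downstream start (chr14:118676936-118676964, minus strand): aataatctcgTGACTCTGCcgtggtggat
Counted from the gene start, the cores began at -240 in Nfe2l2, 29 in Srxn1, -92 in Txnrd1, -134 in Gclm, and -25 and -23 in the windows of Abcc4. A match is a description of the letters and not a site of binding.

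Srxn1 and Nqo1, the 2 genes of the set that rose with age, differed in these letters. The 250 bases upstream of each start are printed with the core, its variant and the AP-1 site in capitals.
Srxn1 (chr2:152105274-152105523, plus strand): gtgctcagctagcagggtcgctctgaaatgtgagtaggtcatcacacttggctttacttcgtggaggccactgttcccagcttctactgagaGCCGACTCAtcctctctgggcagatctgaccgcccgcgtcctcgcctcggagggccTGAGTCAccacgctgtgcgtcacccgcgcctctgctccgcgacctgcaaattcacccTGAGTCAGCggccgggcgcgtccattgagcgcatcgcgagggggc
Nqo1 (chr8:107403206-107403455, minus strand): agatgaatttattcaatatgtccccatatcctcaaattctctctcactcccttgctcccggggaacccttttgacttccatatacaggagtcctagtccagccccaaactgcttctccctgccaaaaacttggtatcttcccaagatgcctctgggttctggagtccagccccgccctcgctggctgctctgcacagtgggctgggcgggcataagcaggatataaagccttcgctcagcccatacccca
Srxn1 held 2 AP-1 sites, at -102 and -45, and 2 variant cores, at -158 and -45, so that at -45 the variant core and an AP-1 site overlap. AP-1 sites were in 7.81% of all windows and 5.25% of those of tested genes, and variant cores in 17.6% and 19.5%. Among the windows of the 10 genes, AP-1 letters were found in that of Srxn1 and variant cores in those of Srxn1 and Abcc4. No core, variant or AP-1 letters were found in the window of Nqo1, which says only that they are not in these bases. GCGTG, the core letters to which the aryl hydrocarbon receptor binds, were not in the window of Nqo1 either, whereas 32.4% of all windows, 50.01% of the windows of tested genes and 7 of the 10 windows here, from 5 of the 7 genes (Keap1, Srxn1, Txnrd1, Gclm and Abcc4), held them.

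Levels are in CPM (counts per 1e+06 counts, scaled between libraries by TMM), or in TPM, which is also scaled for gene length, where genes are compared with each other. The libraries held 4724687 to 11143125 estimated counts at 3 months and 6882935 to 10458583 at 21 months, and the 45S ribosomal RNA precursor Rn45s took 18.7% to 25.6% of them without separating the ages. The detection limit, set at the 3 counts that a 0 still allows, was 0.257 to 0.607 CPM by library for counting error alone. All 7 hepatocyte markers were present in every library (summed level 49404 to 63509 CPM at 3 months and 67834 to 71509 at 21 months). Most of that sum was Alb, with means of 36157 CPM at 3 months and 51818 CPM at 21 months. The log2 fold change was above 0 for 3 of the 7 markers and below 0 for 4. Alb was higher at 21 months and Apoa1 lower in edgeR's quasi-likelihood fit (p adjusted by Benjamini-Hochberg over all 11251 genes tested, 0.0275 and 0.0176). On the TPM scale neither passed. The effective gene length fell short of the full length by a median of 34.4 to 38.8 bases at 3 months. In 21-month replicates 1, 2 and 3 it fell short by 35.4, 30.9 and 21.4 bases.

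All 10 genes passed the filter on low counts. By the same edgeR test, 2 of the 10 were higher at 21 months, Nqo1 and Srxn1, and 0 were lower, where 5.47% of all genes tested were higher and 5.86% lower. At an unadjusted p under 0.05, 3 were higher and 1 was lower, against 12.7% and 13.9% of all genes tested, and DESeq2, limma voom and limma on log2 TPM also called 2 higher and 0 lower. The libraries of the ages did not overlap for 4 of the 10 genes (Nqo1, Srxn1 and Gclm higher, Gsr lower), against 24.2% of all genes tested. The median log2 fold change, 21 months over 3 months, was 0.16 over the 10 genes and -0.0015 over all genes tested, and ranged among the 10 from -0.33 for Gsr to 1.38 for Nqo1. On the TPM scale the median of all genes lay at 0.10, so a value there is read against that shift, and 72.8% of the calls were higher against 48.3% here.

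**Figure D1:**
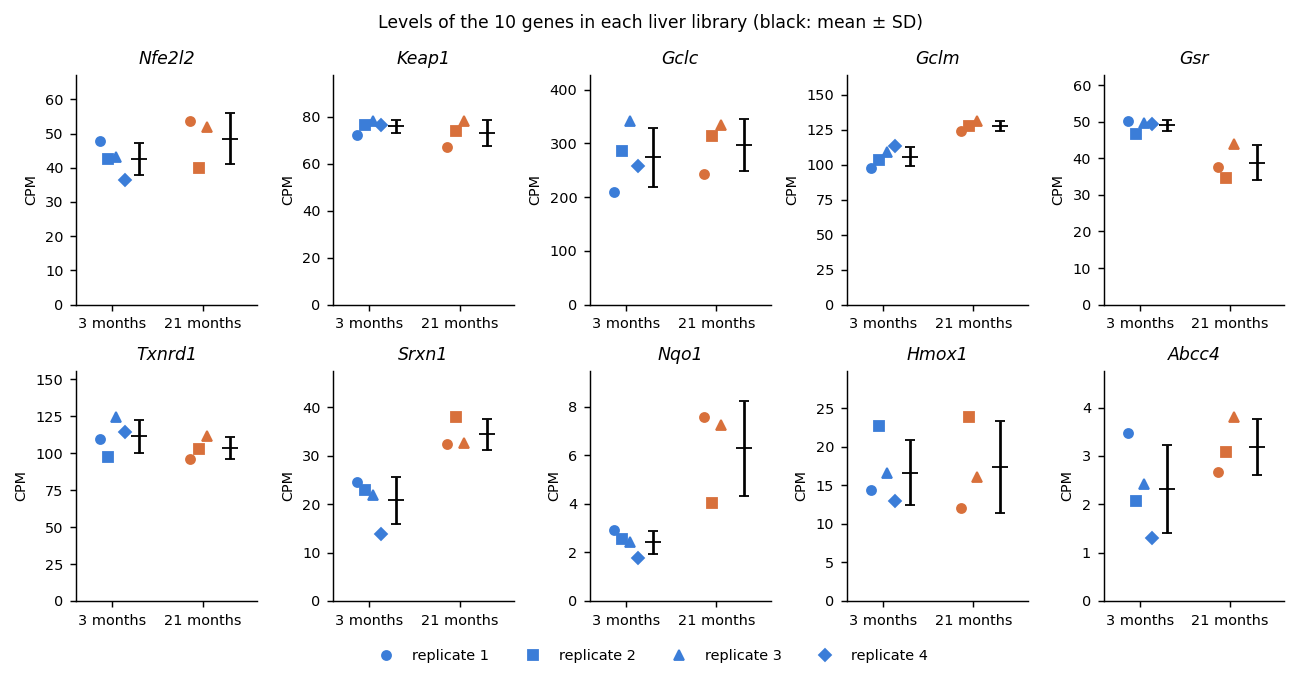
CPM of each of the 10 genes (vertical axes from 0) in the 4 libraries at 3 months (blue) and the 3 at 21 months (orange), with the replicate number as the symbol and the mean ± SD in black. The ages are apart for Nqo1, Srxn1, Gclm and Gsr, and the libraries of the ages overlap for the other 6 genes.

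Nfe2l2, the transcription factor, had 47.8, 42.6, 43.1 and 36.5 CPM at 3 months and 53.8, 39.9 and 51.9 CPM at 21 months, in the order of the replicate numbers, as for all values by library below. Replicates 1 and 3 at 21 months were above every 3-month library, and replicate 2 lay among them. The log2 fold change was 0.20 ± 0.12 (SE; 95% interval -0.071 to 0.46; edgeR adjusted p = 0.348). Keap1, which encodes the repressor, stood at 72.1, 76.4, 78.3 and 76.3 CPM at 3 months and at 67.0, 73.7 and 78.3 CPM at 21 months. These ranges overlapped almost wholly. Its log2 fold change was -0.054 ± 0.094 (SE; 95% interval -0.26 to 0.15; edgeR adjusted p = 0.770), the sign of which turned on the TPM scale (0.083). That interval corresponds to 0.838 to 1.11 times the 3-month level, among the narrowest of the 10 genes.

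As a ratio of TPM within a library, Nfe2l2 to Keap1 was 0.888, 0.749, 0.772 and 0.651 in 3-month replicates 1 to 4, and 1.08, 0.737 and 0.880 in 21-month replicates 1 to 3. Only 21-month replicate 1 had more Nfe2l2 than Keap1 per length. The mean ratio was 0.765 ± 0.0972 (SD, n = 4) at 3 months and 0.899 ± 0.172 (SD, n = 3) at 21 months (two-sided exact permutation p = 0.286 over 35 splits, 0.429 adjusted over the 2 ratios computed, n = 7). The smallest p that 4 libraries against 3 allow is 0.0286.

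Of the regulators and partners of NRF2, 11 were tested, among them Mafg, Mafk, Bach1, other parts of its degradation and coactivators. Of the 11, 0 were higher or lower by edgeR, DESeq2, limma voom or limma on log2 TPM. By edgeR, 5.47% of all genes tested were higher and 5.86% lower. At an unadjusted edgeR p under 0.05, 0 were higher and 1 was lower, against 12.7% and 13.9% of all genes tested. Sqstm1, which encodes p62, an autophagy receptor that binds KEAP1, was at 339 ± 32.2 CPM (SD, n = 4) at 3 months and 376 ± 32.2 CPM (SD, n = 3) at 21 months (edgeR adjusted p = 0.387). Nfe2l1, which encodes the related factor NRF1, was at 141 ± 15.4 and 138 ± 9.38 CPM (edgeR adjusted p = 0.914). The median log2 fold change of the 11 genes was -0.025.

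Glutathione is made in 2 steps, of which glutamate-cysteine ligase catalyses the rate-limiting one; Gclc encodes its catalytic subunit and Gclm the modifier subunit that raises its affinity for glutamate. Gclm measured 97.8, 103, 109 and 113 CPM in the young libraries and 124, 128 and 132 CPM in the old ones. Every old library was above every young one, on the TPM scale too (87.6 to 109 against 121 to 138). The difference was small, 1.21-fold (95% interval 1.06 to 1.38; log2 fold change 0.27 ± 0.090 SE), and just missed the threshold (edgeR adjusted p = 0.0619). It passed with Rn45s and Lars2 removed (edgeR adjusted p = 0.0461), with a minimum mean of 5 CPM (0.0445) and without 21-month replicate 1 (0.0461), and its range over all alternatives was 0.0445 to 0.366.

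Gclc varied more between libraries of the same age, at 210, 285, 342 and 258 CPM at 3 months and 243, 315 and 334 CPM at 21 months. The highest and the lowest libraries of the 7 were both young. Its log2 fold change was 0.12 ± 0.16 (SE; edgeR adjusted p = 0.693), and the interval of 0.853 to 1.38 times the 3-month level includes the size seen for Gclm. Per length, Gclc exceeded Gclm in every library. The ratio of their TPM was 1.29, 1.65, 1.88 and 1.37 at 3 months and 1.17, 1.48 and 1.52 at 21 months, with means of 1.55 ± 0.272 (SD, n = 4) and 1.39 ± 0.193 (SD, n = 3). The ages overlapped (two-sided exact permutation p = 0.429, 0.429 adjusted over the 2 ratios, n = 7).

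Gsr encodes glutathione reductase, which uses NADPH to return oxidised glutathione to its reduced form. It went the other way from Gclm: 50.4, 46.7, 49.6 and 49.5 CPM at 3 months and 37.7, 34.6 and 44.0 CPM at 21 months. The 3-month libraries had a coefficient of variation of 3.30%, and every old library was below them. The log2 fold change of -0.33 ± 0.11 (SE; 95% interval -0.56 to -0.11) just missed the threshold (edgeR adjusted p = 0.0572), and the call was made under none of the 18 alternatives (adjusted p = 0.0538 to 0.333). On the TPM scale the ages overlapped, with 33.2 to 38.2 TPM at 3 months and 28.3 to 35.6 TPM at 21 months.

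The thioredoxin branch is represented by Txnrd1, cytosolic thioredoxin reductase, and by Srxn1, sulfiredoxin, which repairs overoxidised peroxiredoxins. Srxn1 measured 24.6, 22.8, 21.8 and 13.8 CPM in the young libraries and 32.4, 37.99 and 32.7 CPM in the old ones. The ages did not overlap, and 3-month replicate 4 was low among the young libraries. Srxn1 rose 1.65-fold (95% interval 1.30 to 2.09; log2 fold change 0.72 ± 0.16 SE, edgeR adjusted p = 0.0110, higher in 3 of 3 old libraries). Without 3-month replicate 4 the log2 fold change was 0.57 (edgeR adjusted p = 0.0166).

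Txnrd1 stood at 109, 97.5, 125 and 115 CPM at 3 months and at 96.4, 103 and 112 CPM at 21 months. The ranges overlapped, and its log2 fold change was -0.11 ± 0.10 (SE; edgeR adjusted p = 0.563), a sign that turned on the TPM scale (0.023). The 95% interval was 0.799 to 1.08 times the 3-month level, and that of Srxn1, given above, lies wholly over it; the difference between the 2 genes was not itself tested.

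Among the wider glutathione and thioredoxin genes, 2 of 13 tested rose and 0 fell by edgeR, against 5.47% and 5.86% of all genes tested. Gpx4, which reduces lipid hydroperoxides, rose from 224 ± 15.4 CPM (n = 4) to 326 ± 46.1 CPM (n = 3, edgeR adjusted p = 0.00545). The glutaredoxin Glrx rose from 24.3 ± 3.86 to 35.6 ± 6.13 CPM (edgeR adjusted p = 0.0243). Prdx1, a peroxiredoxin that sulfiredoxin repairs, was at 389 ± 33.7 and 462 ± 92.6 CPM (edgeR adjusted p = 0.215), and Prdx6 at 307 ± 19.8 and 362 ± 33.6 CPM (0.133). Slc7a11, the cystine transporter, chosen after its values were seen, was at 2.14 ± 1.02 and 4.47 ± 1.94 CPM (a difference of 1.04 ± 0.38 SE in log2; adjusted p = 0.0894 by edgeR). Of the 6 genes that supply NADPH, 0 were called in either direction by edgeR, DESeq2, limma voom or limma on log2 TPM. At an unadjusted edgeR p under 0.05, 1 was higher and 0 were lower, against 12.7% and 13.9% of all genes tested. All 6 had a log2 fold change above 0 (0.081 to 0.26). The most abundant per length were Idh1 (277 ± 19.3 and 301 ± 39.7 CPM; edgeR adjusted p = 0.511) and Taldo1 (87.6 ± 7.28 and 93.4 ± 10.1 CPM; 0.618).

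Nqo1 encodes NAD(P)H:quinone oxidoreductase, which reduces quinones in a single step past the reactive semiquinone, and it had the smallest p-value of the 10 genes. It was counted at 16, 30, 12 and 11 reads in 3-month replicates 1 to 4 and at 77, 29 and 61 in 21-month replicates 1 to 3. Scaled for depth these were 2.92, 2.57, 2.43 and 1.79 CPM at 3 months and 7.59, 4.05 and 7.25 CPM at 21 months. Every old library was above every young one, though replicate 2 stood well below the other old libraries. Nqo1 rose 2.61-fold (95% interval 1.75 to 3.89; log2 fold change 1.38 ± 0.27 SE, edgeR adjusted p = 0.00506, higher in 3 of 3 old libraries). The log2 fold change lay between 1.22 and 1.62 in the fits without 1 library each, and was 1.17 with replicate numbers as a block.

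For Nqo1 and for Srxn1 the call ended in 1 alternative, with the shortfall of effective length as a covariate (edgeR adjusted p = 0.0536 and 0.0648), where their log2 fold changes of 1.39 and 0.82 were no smaller. That shortfall was below the 3-month range in 21-month replicates 2 and 3 and within it in replicate 1, as given above. In that fit 332 genes were called among all tested, against 1274.

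**Figure D2:**
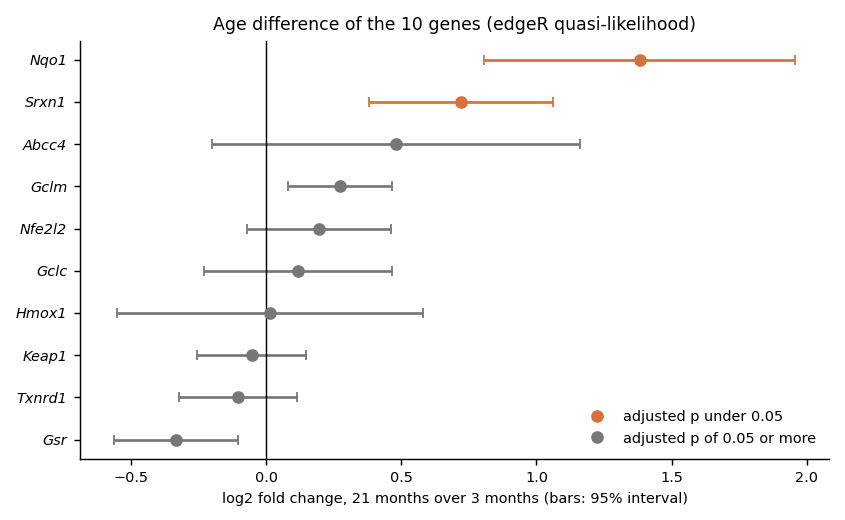
Log2 fold change of the 10 genes, 21 months over 3 months, with 95% intervals from the edgeR fit; orange marks an adjusted p under 0.05. Nqo1 (1.38) and Srxn1 (0.72) are marked, the intervals of Gclm and Gsr exclude 0 before adjustment, and those of Abcc4 and Hmox1 are among the widest.

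The 3 tested genes whose log2 CPM followed that of Nqo1 most closely over the 7 libraries were AW112010 (Pearson r = 0.987), Rabgap1l (0.986) and Adh7 (0.984), a description over points that share the age difference. AW112010 went from 20.2 ± 2.70 CPM (n = 4) to 39.0 ± 11.3 CPM (n = 3; edgeR adjusted p = 0.00693). Adh7, an alcohol dehydrogenase, was at 2.56 ± 0.426 and 4.40 ± 0.990 CPM (edgeR adjusted p = 0.0637), and Rabgap1l at 17.0 ± 0.731 and 20.2 ± 1.66 CPM (0.194).

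Nqo1 is also a known target of the aryl hydrocarbon receptor. Of 4 tested genes of that receptor's own circuit, 0 were called in either direction by edgeR, DESeq2, limma voom or limma on log2 TPM. By edgeR, 5.47% of all genes tested were higher and 5.86% lower. At an unadjusted edgeR p under 0.05, 1 was lower, against 13.9% of all genes tested: Cyp1a2, a target of the receptor that is constitutive in liver. Chosen after its values were seen, Cyp1a2 was at 569 ± 137 and 433 ± 25.9 CPM (a difference of -0.39 ± 0.15 SE in log2; adjusted p = 0.114 by edgeR). Cyp1a1, also chosen after its values were seen and not tested for low counts, was at 1.07 ± 0.129 and 0.727 ± 0.329 CPM.

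In the group of quinone, aldehyde and conjugation enzymes, 8 of 24 tested rose and 0 fell by edgeR, where 5.47% of all genes tested rose and 5.86% fell. At an unadjusted edgeR p under 0.05, 10 were higher and 2 lower, against 12.7% and 13.9% of all genes tested. The median log2 fold change of the group was 0.28. Nqo2, a relative of Nqo1 that uses another cosubstrate, rose from 49.4 ± 3.79 CPM (SD, n = 4) to 76.8 ± 8.98 CPM (SD, n = 3; edgeR adjusted p = 0.00209). The glucuronosyltransferase Ugt1a6a was at 65.1 ± 4.09 and then 91.0 ± 2.71 CPM (edgeR adjusted p = 0.00459), and the carboxylesterase Ces1g went from 144 ± 8.61 to 230 ± 21.6 CPM (0.000800). The other 5 were glutathione transferases: Gsta2 (2.39-fold), Gstm2 (1.71-fold), Gstm6 (1.66-fold), Gstm1 (1.56-fold) and Gstm4 (1.48-fold). Members of these families, Ugt1a6a included, have near-identical copies or shared exons, so reads may be split between them and single values are uncertain.

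The most abundant genes of this group per length did not pass. Gstp1 was at 2262 ± 255 CPM (n = 4) and 1046 ± 477 CPM (n = 3), with no overlap of the ages (a difference of -1.11 ± 0.34 SE in log2; adjusted p = 0.0915 by edgeR), and it may share reads with the near-identical Gstp2. Mgst1, a microsomal transferase, was at 1778 ± 133 and 2066 ± 515 CPM (edgeR adjusted p = 0.363). Gstp1 was called lower by DESeq2, by limma voom, by edgeR without robust estimation, and by edgeR without 21-month replicate 1 (adjusted p = 0.00114) or replicate 2 (0.0387). Limma voom and edgeR without robust estimation also called Osgin1, an oxidative stress induced growth inhibitor chosen after its values were seen, lower (270 ± 85.8 and 149 ± 45.6 CPM; edgeR adjusted p = 0.151 with robust estimation).

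Hmox1 encodes haem oxygenase 1, which opens the haem ring and is abundant in macrophages that clear red cells. It measured 14.4, 22.7, 16.6 and 13.0 CPM at 3 months and 12.1, 23.9 and 16.1 CPM at 21 months. Replicate 2 was the highest library at each age, and the ages overlapped wholly. The log2 fold change was 0.014 ± 0.25 (SE; edgeR adjusted p = 0.983), with a 95% interval of 0.682 to 1.49 times the 3-month level, and changes within it are not excluded.

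The summed level of 12 Kupffer cell and macrophage markers, such as Clec4f, Vsig4 and Csf1r, moved with Hmox1. The sum was 356, 517, 380 and 333 CPM in 3-month replicates 1 to 4 and 207, 603 and 441 CPM in 21-month replicates 1 to 3, with none of the 12 at 0 in any library and 0 of 12 called by edgeR, DESeq2, limma voom or limma on log2 TPM (0 at an unadjusted p under 0.05). Within each age the libraries stood in the same order for Hmox1 as for the markers. Over the 7 libraries Pearson's r was 0.939 (exact permutation p = 0.000397, 0.00397 adjusted over the 10 genes) and Spearman's rho 0.964 (exact permutation p = 0.00278, 0.0278 adjusted). Without 21-month replicates 1 and 2, the libraries farthest from the median of the markers, r was 0.934 over the remaining 5. Among the other 9 genes r lay between -0.457 for Nfe2l2 and 0.523 for Gclc, and none passed (exact permutation adjusted p = 0.752 to 0.840). Each age alone held too few libraries for a correlation. The summed level of 6 endothelial markers also ran with Hmox1, at 175, 208, 195 and 121 CPM at 3 months and 86.5, 192 and 180 CPM at 21 months, lowest in the same library (21-month replicate 1). Spearman's rho with Hmox1 was 0.893 (exact permutation p = 0.0123, 0.0246 adjusted over 4 cell types) and Pearson's r 0.762 (exact permutation p = 0.0504, 0.101 adjusted), or 0.740 without 3-month replicate 4 and 21-month replicate 1. For stellate and bile duct markers r was 0.694 and -0.261 (exact permutation adjusted p = 0.106 and 0.536), and rho was 0.536 and -0.429 (0.314 and 0.354); without the 2 libraries farthest from each median, r was 0.200 and 0.315. In whole liver, more cells of a type and more RNA per cell cannot be told apart, and the part of either cell type in the level of Hmox1 was not tested.

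**Figure D3:**
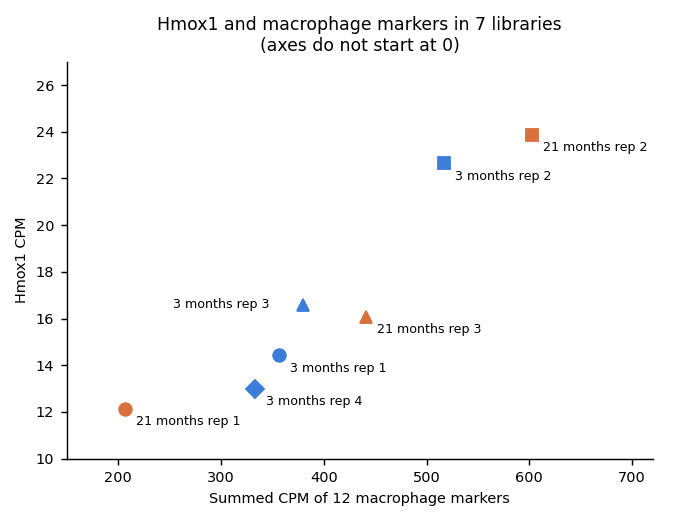
CPM of Hmox1 against the summed CPM of 12 macrophage markers in each of the 7 libraries (blue, 3 months; orange, 21 months; neither axis starts at 0). The points run from 21-month replicate 1 (207 and 12.1 CPM) to 21-month replicate 2 (603 and 23.9 CPM), with the ages interleaved.

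Of the 7 other genes of haem and iron handling, 1 rose and 0 fell by edgeR, against 5.47% and 5.86% of all genes tested. Blvrb, a biliverdin reductase, went from 73.7 ± 9.23 CPM (n = 4) to 102 ± 15.6 CPM (n = 3; edgeR adjusted p = 0.0235). Its call was lost by limma on log2 TPM (adjusted p = 0.0758), which called 0 genes of this group, with the shortfall of effective length as a covariate (edgeR, 0.377) and in 3 of the 7 fits without 1 library each. The ferritin subunits Ftl1 and Fth1, both known NRF2 targets with many pseudogenes, were at 3133 ± 224 and 3271 ± 170 CPM (edgeR adjusted p = 0.760) and at 1135 ± 86.9 and 1182 ± 28.3 CPM (0.760). Hmox2, the constitutive haem oxygenase, chosen after its values were seen, was at 28.1 ± 2.99 and 21.9 ± 2.08 CPM with no overlap of the ages (edgeR adjusted p = 0.0633).

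Abcc4 encodes MRP4, a pump of the basolateral membrane that moves conjugates and bile acids from hepatocytes into blood. It was the scarcest of the 10 genes, with 63 counts over the 3-month group and 81 over the 21-month group. It stood at 3.47, 2.06, 2.43 and 1.30 CPM at 3 months and at 2.66, 3.07 and 3.81 CPM at 21 months. The ages overlapped through 3-month replicate 1, and the log2 fold change was 0.48 ± 0.32 (SE; edgeR adjusted p = 0.371). Its interval of 0.870 to 2.24 times the 3-month level does not exclude a doubling.

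Of the 6 other export pumps, 1 rose and 0 fell by edgeR, against 5.47% and 5.86% of all genes tested. Abcc3, the MRP3 pump, also basolateral, rose from 245 ± 33.9 CPM (n = 4) to 331 ± 55.8 CPM (n = 3, edgeR adjusted p = 0.0482). That call was lost in 6 of the 7 fits without 1 library each and in 7 other alternatives, among them limma voom (adjusted p = 0.0649) and limma on log2 TPM (0.118), by each of which 0 pumps were called. Abcc2, the canalicular MRP2, was at 338 ± 8.21 and 336 ± 53.5 CPM (edgeR adjusted p = 0.983), and Abcc6 at 184 ± 16.0 and 213 ± 25.2 CPM (0.215). Abcc4 is also known as a target of the nuclear receptor CAR. Of 7 genes tested from the CAR and PXR circuits, 3 rose and 0 fell by edgeR, against 5.47% and 5.86% of all genes tested. They were Cyp2b10 (2.59 ± 1.08 CPM, n = 4, to 22.3 ± 7.41 CPM, n = 3, edgeR adjusted p = 0.000889), Cyp2c55 (5.23 ± 0.484 to 9.27 ± 1.43 CPM, 0.00984) and Cyp3a11 (1687 ± 298 to 2925 ± 580 CPM, 0.00751). With the shortfall of effective length as a covariate the calls of Cyp2c55 (edgeR adjusted p = 0.117) and Cyp3a11 (0.0799) ended, and that of Cyp2c55 also without 21-month replicate 3 (0.0567). Cyp2b10 and Cyp3a11 have near-identical relatives that may share reads.

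Over the 6 groups of further pathway genes together, 12 of 67 tested rose and 0 fell by edgeR, against 5.47% and 5.86% of all genes tested. The groups were chosen with earlier results of these data known, so the counts and shares are a description and not a test. Of the CAR and PXR genes 3 of 7 rose too, as given above. Which regulator lay behind any of these rises was not tested. The glutathione transferases among the 12 may also share reads, as given above. At an unadjusted p under 0.05, 18 were higher and 4 lower, where all genes tested gave 12.7% and 13.9%. DESeq2 called 14 and 1, limma voom 13 and 2, and limma on log2 TPM 9 and 0. Of the 12 rises, Nqo2, Gpx4, Ces1g, Gstm2, Gstm6 and Ugt1a6a kept their calls in all 7 fits without 1 library each. The calls of Abcc3, Gsta2, Gstm1, Glrx, Blvrb and Gstm4 were lost in 6, 5, 5, 4, 3 and 2 of those fits (edgeR adjusted p = 0.0526 to 0.183), and 7, 7 and 6 rises were called without 3-month replicate 2, 3-month replicate 4 and 21-month replicate 3. With the shortfall of effective length as a covariate 6 were called. Of the 12, Ugt1a6a (edgeR adjusted p = 0.0620), Gsta2, Gstm1, Gstm4, Blvrb and Abcc3 lost their calls there and Glrx kept its own (0.0432). The log2 fold changes of the genes that lost their calls were, in that order, 0.47, 1.07, 0.41, 0.62, 0.26 and 0.27. In the main fit they were 0.48, 1.26, 0.64, 0.57, 0.47 and 0.44.

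**Figure D4:**
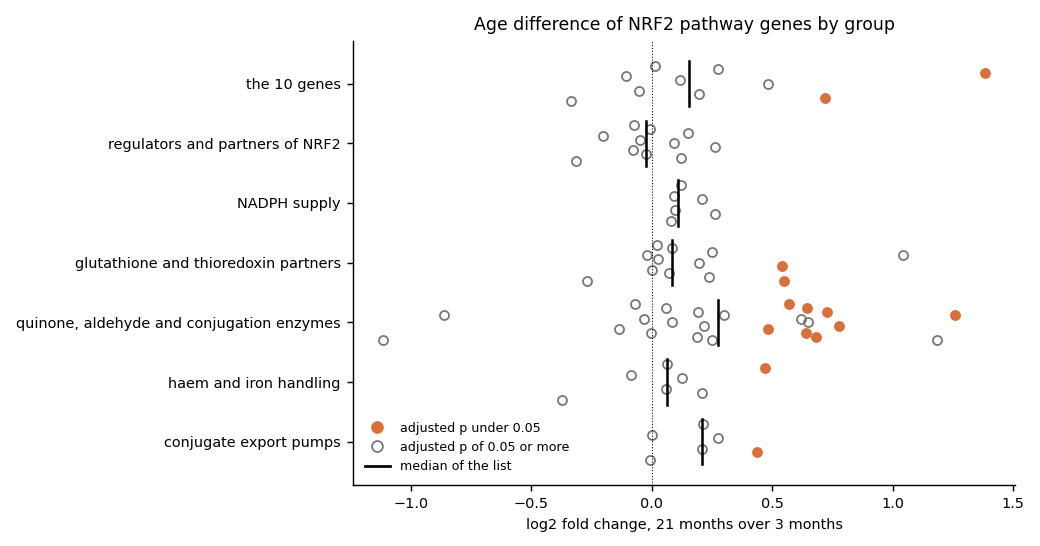
Log2 fold change, 21 months over 3 months, of every tested gene in the set of 10 and in the 6 groups of further NRF2 pathway genes; filled orange points have an adjusted p under 0.05 and black lines are group medians. Of the 12 filled points among the 6 groups, 8 are in the group of quinone, aldehyde and conjugation enzymes. None lies among the regulators or the NADPH enzymes.

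Per length, the levels of the 10 genes spanned a range from Gclc (156 ± 41.0 TPM at 3 months, n = 4; 184 ± 37.2 at 21 months, n = 3) to Abcc4 (0.795 ± 0.287 and 1.20 ± 0.240 TPM). At 3 months the order was Gclc, Gclm, Txnrd1, Keap1, Gsr, Nfe2l2, Hmox1, Srxn1, Nqo1 and Abcc4. The libraries of neighbours in that order overlapped for Gsr with Nfe2l2, Nfe2l2 with Hmox1 and Hmox1 with Srxn1, and for no other pair. At 21 months Nfe2l2 (41.5 ± 5.36 TPM) stood above Gsr (30.7 ± 4.22 TPM), and Srxn1 (25.9 ± 3.29 TPM) above Hmox1 (23.8 ± 9.05 TPM), with overlapping libraries in each pair. Neighbours from Keap1 down to Hmox1 overlapped there. Nqo1 kept its place as the second scarcest at each age, at 3.10 ± 0.680 TPM and 8.63 ± 2.48 TPM.

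**Figure D5:**
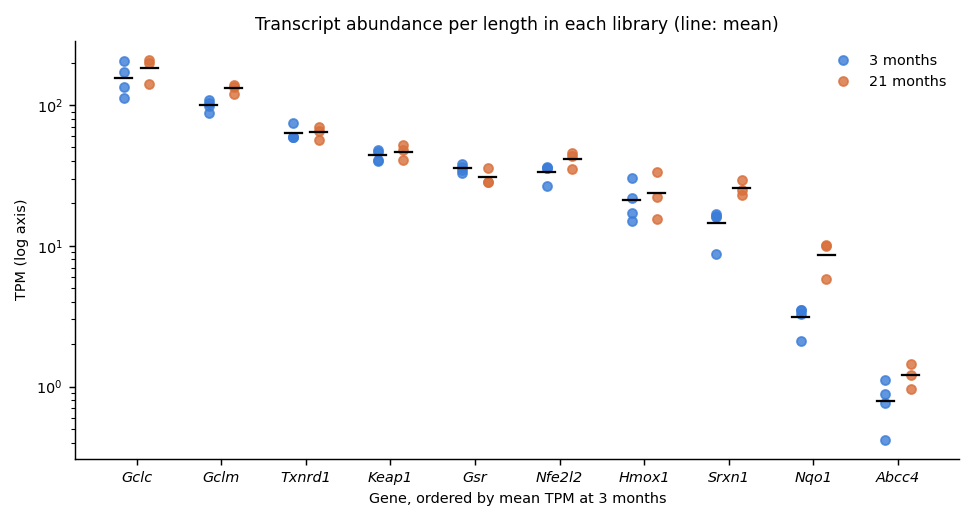
TPM of the 10 genes in each library (log axis), ordered by the mean at 3 months; blue points are 3-month and orange points 21-month libraries, and lines are means. Gclc and Gclm lead at both ages, while Nqo1 (3.10 and 8.63 TPM) and Abcc4 (0.795 and 1.20 TPM) are lowest.

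Keap1, Txnrd1 and Abcc4 each have several transcript models in the tables (4, 4 and 3), and the other 7 genes have 1. The mean length assigned to Keap1 ranged from 3267 to 3441 bases over the libraries and that of Abcc4 from 5504 to 5729 bases, so their TPM also depend on how reads were divided between transcripts. Estimated counts were not whole for Abcc4 in 2 libraries and for Gclm in 1, as happens where a read is divided between genes.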

How the data were processed

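The members and gene lists were chosen with earlier results of these data known. Per the submitters' processing notes, the tools were TopHat, RSEM and edgeR and the build was mm9, with no version or role stated there. The authors deposited expected counts, TPM and FPKM per gene, with gene lengths and effective lengths in bases as other columns (per the file headers); FPKM deposited by the authors were not used. Here, expected counts were rounded, kept where filterByExpr passed them (count 10, total 15; 11251 of 23366 genes), scaled by TMM and tested by robust quasi-likelihood with Benjamini-Hochberg adjustment at 0.05 (edgeR 4.0.16; alternatives in DESeq2 1.42.0 and limma 3.58.1, all under R 4.3.3). A standard error is the log2 fold change over the root of F. In simulated data with 100 of 11251 genes changed, the fit recovered 45% of them at 1.5-fold and 83% at 2-fold. Many changes of 1.5-fold or less can thus go uncalled. The fit also made 8 false calls at each size, so some calls can be false. The 100 changed genes are fewer than the 1274 called in the data, so both rates may differ there. TPM tests used log2(TPM + 1), and the likeness to Nqo1 log2(CPM + 0.5).

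Named genes were all 10 members; of each further pathway list, the called genes and up to 2 more by highest TPM; the called genes of the receptor lists; and the 3 genes most like the member of smallest adjusted p. Of the marker lists, those of endothelial, stellate and bile duct cells and of pericentral and periportal hepatocytes were read as checks. By edgeR, Lyve1 (of 6 endothelial markers tested) and Sox9 (of 4 bile duct markers) were lower and Dcn (of 7 stellate markers) higher. Of all genes tested, 5.86% were lower and 5.47% higher. The log2 fold change was below 0 for 5, 4 and 2 markers of these lists, in that order. The bile duct sum was 32.4 to 46.9 CPM at 3 months and 29.2 to 31.8 CPM at 21 months. Of the pericentral and periportal genes, 0 of 8 and 0 of 7 were called by edgeR, DESeq2, limma voom or limma on log2 TPM. At an unadjusted edgeR p under 0.05, 1 was lower in each, against 13.9% of all genes tested. Same-numbered libraries of the ages deviated together (correlations 0.108 to 0.176 over 3 pairs; -0.225 to 0.157 over the 9 other pairs), so by the data, not the labels, the numbers may mark pairs. Every pair of libraries differed beyond counting noise. Figures used Python 3.11.15 and matplotlib 3.10.9. Promoter windows read 5′ to 3′ on the gene's strand. Of overlapping windows on opposite strands, 1627 pairs were reverse complements of each other, and the number of pairs compared was not recorded.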

Additional observations from a re-analysis of the deposited data

How the results depend on the processing

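Over 178 refits of single genes among the 10, 164 kept direction and side of the threshold, 9 turned direction, 3 gained a call and 2 lost one. Nqo1 kept its call in 16 of 17 refits and Srxn1 in 17 of 18. For the other genes a kept side means that no call was made. With the shortfall of effective length as a covariate, 0 of the 10 genes, 6 further pathway genes and 332 genes among all tested were called higher or, for all tested, in either direction, and the log2 fold change of Gclc turned to -0.088. That fit estimates 1 more term from the same 7 libraries; otherwise the cause was not tested. On the log2 TPM scale 727 genes were called (529 higher and 198 lower), and the signs of Keap1 (0.083) and Txnrd1 (0.023) turned. Both values stayed below the median of all genes tested on that scale (0.10). Keap1 also turned without 21-month replicate 1 (0.0037). Hmox1 turned with limma voom (-0.055), with the replicate block (-0.060) and without a library: 3-month replicate 1 (-0.049), its replicate 4 (-0.090) or 21-month replicate 2 (-0.26), within a range of -0.26 to 0.23 over these fits. Further pathway genes called lower numbered 1 with DESeq2, 2 with limma voom and 2 with edgeR without robust estimation. In the fits without 1 library each, 2 to 3 of the 10 genes, 6 to 12 further pathway genes and 580 to 1642 genes in all were called, with 0 to 1 further pathway genes lower; the lowest total came without 21-month replicate 3, and 773, 834 and 745 came without 3-month replicates 2, 3 and 4. The ratios of Gclc to Gclm and of Nfe2l2 to Keap1 kept their direction under every alternative run (log2 differences -0.23 to -0.027 and 0.083 to 0.36 without 1 library each). With the replicate block the call of Abcc3 was lost and 13 further pathway genes were higher; Nqo1 (log2 fold change 1.17, edgeR adjusted p = 0.0151) and Srxn1 (0.58, 0.0129) were still called and no call among the 10 changed. Over 3 pairs only 8 splits exist, so the paired ratios cannot pass. With a minimum mean of 5 CPM, Nqo1 and Abcc4 were not tested. The lowest counts of the 10 genes were those of Abcc4 and Nqo1, with 8 to 77 counts a library.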
